A study of Saccharomyces cerevisiae with 8 samples.

Results

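The genes described here encode the aminoacyl-tRNA synthetases of *Saccharomyces cerevisiae*, the enzymes that load each amino acid onto its tRNA. All 35 listed genes were found among the 5656 genes with a probe set, by the current symbol or locus tag of probe sets annotated to 1 gene, and each had a single probe set. They comprise 21 enzymes or subunits of the cytosol, which cover all 20 amino acids, and 14 enzymes of the mitochondrion. The comparison was of 4 gentamicin samples (arrays 5 to 8) with 4 control samples that received no gentamicin (arrays 1 to 4). Both groups were grown in YPD and collected in mid-log phase, and both were the same strain, named by the number 4073 alone, without a genotype or mating type. The gentamicin cells had first been acclimated to the drug and were kept in it throughout. The sample labels give 500 µg/ml, while the design text writes the same number with mg/ml, so the unit of the dose is unresolved. The labels do not say whether the samples of a group came from separate cultures, so p-values measure the spread between these samples, which may be technical.

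A synthetase activates an amino acid with ATP and joins it to the end of the matching tRNA, and the charged tRNA is handed to the elongation factor at the ribosome. The enzymes fall into class I and class II, with unrelated folds of the catalytic domain. Yeast mitochondria keep their own ribosomes and tRNAs, and the nucleus encodes a separate set of synthetases for most of the mitochondrial tRNAs. For a few amino acids a single gene makes both forms of the enzyme from different start sites. Gentamicin is an aminoglycoside, a class of antibiotic that binds the decoding site of ribosomal RNA. Uncharged tRNA, which builds up when charging falls short, is sensed by the kinase Gcn2, and Gcn2 raises translation of the activator Gcn4.

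Signals are in arbitrary units and can be compared between arrays for a gene, but not between genes. Of the 5656 genes, the 4524 left after removal of the 20% with the lowest mean signal were tested with limma, and a gene was called at a Benjamini-Hochberg adjusted p under 0.05 over all tested genes. The median signal of an array was 330 ± 7.06 with gentamicin and 389 ± 7.16 in controls (SD, n = 4 each), and the median log2 difference over tested genes was -0.12. Distances of the synthetases from that median are therefore given where a direction depends on it. The log2 signals of an array were also more widely spread with gentamicin. Their quartiles lay 2.16 ± 0.03 log2 units apart over tested genes, against 1.91 ± 0.03 in controls (SD, n = 4 each). A distance from the median does not correct for this. Control array 1 and gentamicin array 5 deviated from their group means together, with a correlation of 0.377 across 4524 genes, whereas the other 15 pairings of a gentamicin with a control array ran from -0.251 to 0.290. Genes are not independent replicates, and the labels name no batch. Several synthetases had their lowest value on control array 1, and calls that change without it are given with the gene concerned. All single signals of the 35 genes, the lowest being 91.0, lay above the highest signal of 13 array controls for absent transcripts (89.5).

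Most synthetase genes did not pass the test, and those that did changed by less than 2-fold. Of the 30 tested members, 8 fell and 2 rose with gentamicin, and 20 were not called. The 10 called genes are 33.3% of those tested, against 46.8% called over all tested genes. The 8 that fell encode the alanyl (*ALA1*), phenylalanyl alpha (*FRS2*), methionyl (*MES1*), cysteinyl (*CRS1*), tyrosyl (*TYS1*), tryptophanyl (*WRS1*) and prolyl (YHR020W) enzymes of the cytosol and the putative prolyl enzyme of the mitochondrion (*AIM10*). The 2 that rose were the glutamyl (*GUS1*) and aspartyl (*DPS1*) enzymes of the cytosol. The same 8 and 2 genes were those whose groups did not overlap, against 29.6% of all tested genes with lower and 15.2% with higher gentamicin values, or 44.8% in all. The median log2 difference over the 30 genes was -0.16, or -0.04 relative to all tested genes.

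**Figure D1:**
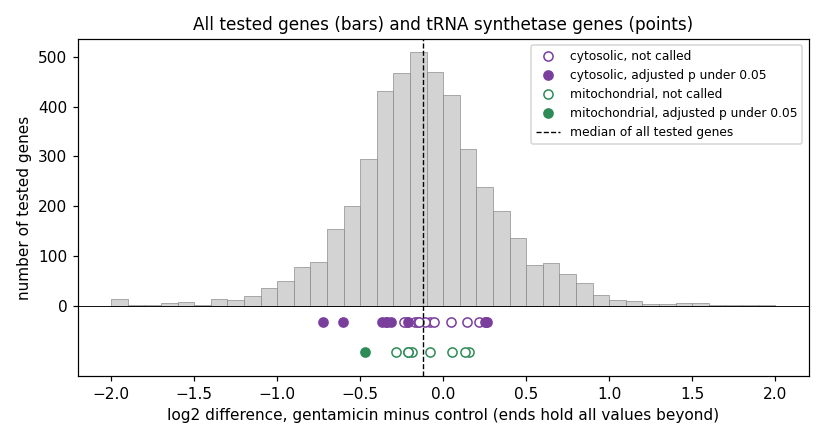
Histogram of the log2 difference, gentamicin minus control, for the 4524 tested genes, with the 21 cytosolic and 9 tested mitochondrial synthetases as points below it (filled: adjusted p under 0.05). The synthetases lie between -0.72 and 0.26, around the dashed median of all tested genes at -0.12.

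Among the cytosolic enzymes, 7 of 21 fell and 2 rose. These shares were 33.3% and 9.52%, against 31.3% of all tested genes that fell and 15.5% that rose. With each array left out in turn, 7 to 9 cytosolic genes fell and 1 to 4 rose. Neither share is therefore read as a difference from the array. The median log2 difference of the 21 genes was -0.15, which is -0.03 from that of all tested genes. After quantile normalization the distance was -0.14. On single arrays, the median of the cytosolic genes relative to their control means lay between -0.24 and -0.08 on the gentamicin arrays and between -0.01 and 0.04 on the control arrays.

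*ALA1*, the alanyl-tRNA synthetase, showed the largest decrease of the 35. Its signal was 1431, 1432, 1159 and 1175 on gentamicin arrays 5 to 8, against 2272, 2039, 2158 and 2070.2 on control arrays 1 to 4. The lowest control value lay well above the highest gentamicin value. *ALA1* fell 1.65-fold (log2 difference -0.72 ± 0.09, SE; limma adjusted p = 0.000249), and its call was kept under each of 19 alternatives, with log2 differences from -0.77 to -0.49. A single gene supplies this enzyme to both the cytosol and the mitochondrion.

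Phenylalanyl-tRNA synthetase of the cytosol is built from alpha and beta subunits, made by *FRS2* and *FRS1*. The alpha subunit gene *FRS2* had signals of 1370.0, 1438, 1500.1 and 1551 with gentamicin, against 2213, 2201, 2185 and 2313 in controls. It fell 1.52-fold (log2 difference -0.61 ± 0.06; limma adjusted p = 8.07e-05), with tight values in both groups, and like *ALA1* it was called under all 19 alternatives. The beta subunit gene *FRS1* had signals of 5945, 6723, 8402 and 5579 with gentamicin, against 4783, 8999.7, 9169 and 8725 in controls. The gentamicin values lay below 3 of the 4 control values, and control array 1 lay below all gentamicin values, so the groups overlapped. With all arrays the log2 difference of *FRS1* was -0.22 (95% interval -0.71 to 0.27; limma adjusted p = 0.435). Without control array 1 it was -0.45, past the threshold (limma adjusted p = 0.0229), and without both control array 1 and gentamicin array 5 it was -0.40 (adjusted p = 0.0412). With all arrays, the *FRS1* difference was -0.35 after quantile normalization. It was 0.02 with medians over all probe sets aligned and -0.07 with those over tested genes aligned.

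*CDC60*, the leucyl-tRNA synthetase of the cytosol, followed the same pattern. Its signals were 788, 611, 673 and 749 with gentamicin, against 430.0, 951, 876 and 848 in controls, so that control array 1 again lay apart and below. The log2 difference was -0.08 with all arrays (95% interval -0.60 to 0.44; limma adjusted p = 0.799) and -0.34 without control array 1 (adjusted p = 0.0255). With all arrays its sign turned under other scalings. It was 0.08 after quantile normalization, 0.16 with medians over all probe sets aligned and 0.06 with those over tested genes aligned. The 3′ to 5′ signal ratio of the *SRB4* array control was 5.25 on control array 1, against 3.27 to 3.52 on the other controls. That of *SPT15* was 2.56 against 1.93 to 2.30, and that of *ACT1* was 1.24 against 1.36 to 1.47. On gentamicin arrays the ratios were 3.37 to 4.07 for *SRB4*, 1.81 to 2.92 for *SPT15* and 1.33 to 1.54 for *ACT1*. The highest *SPT15* and *ACT1* ratios were on gentamicin array 5. The part of these ratios in the low values was not tested. *KRS1*, the lysyl enzyme, had signals of 2558, 4151, 3658 and 4532 with gentamicin, against 2977, 3093, 3064 and 3464 in controls. Here 3 gentamicin values lay above every control and gentamicin array 5 lay below them all. The log2 difference of *KRS1* was 0.21 with all arrays (limma adjusted p = 0.302) and 0.38 without gentamicin array 5 (adjusted p = 0.00946).

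**Figure D2:**
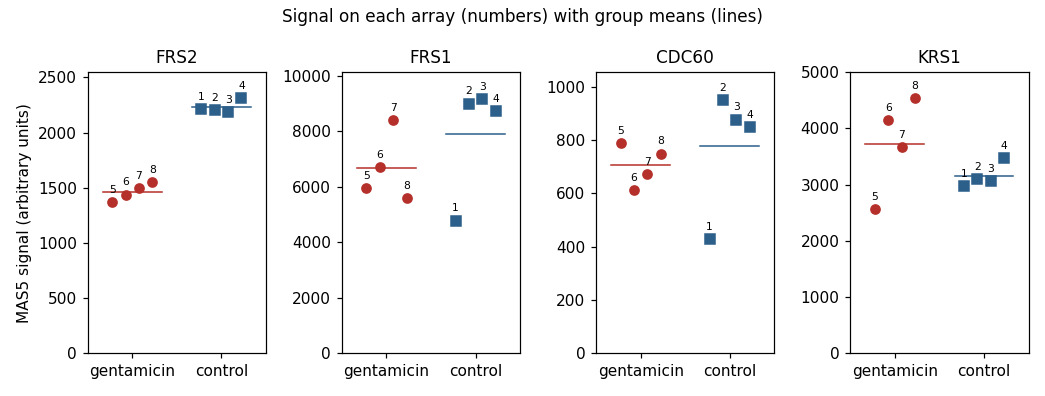
MAS5 signal in arbitrary units on each array (labelled by array number) for *FRS2*, *FRS1*, *CDC60* and *KRS1*, gentamicin left of control, with lines at the group means. The *FRS2* groups are separate, while control array 1 lies below the other controls for *FRS1* and *CDC60*, and gentamicin array 5 lies below the other gentamicin arrays for *KRS1*.

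Of the cytosolic enzymes that fell by less, *MES1* and *TYS1* load methionine and tyrosine. *MES1* had signals of 2215, 2085, 2089.8 and 2162 with gentamicin, against 3064, 2764, 2532 and 2472 in controls, and fell 1.26-fold (log2 difference -0.34 ± 0.08; limma adjusted p = 0.00653). *TYS1* had 1914, 1709, 1688 and 1652 with gentamicin, against 2009, 2047, 2201 and 2420.1 in controls, and fell 1.24-fold (adjusted p = 0.0106). In both genes all gentamicin values lay below all control values, by a narrow margin in *TYS1*. *WRS1*, the tryptophanyl enzyme, had 1729, 1874, 1686 and 1510.0 with gentamicin, against 2380.5, 1984, 2353 and 1938 in controls, and fell 1.27-fold (adjusted p = 0.0162). *CRS1* (YNL247W), the cysteinyl enzyme, had 392, 433, 396 and 481 with gentamicin, against 577, 571, 512 and 533 in controls, and fell 1.29-fold (adjusted p = 0.00864). Again the groups did not overlap. The downward calls of *MES1*, *TYS1*, *WRS1*, *CRS1* and YHR020W were lost when array medians were aligned, over all probe sets (adjusted p from 0.282 to 0.805) or over tested genes (0.0874 to 0.446), and that of *CRS1* also after quantile normalization (0.205). Relative to the median of all tested genes, these 5 genes stood 0.09 to 0.24 log2 units lower.

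The neighbouring genes *DED81* (YHR019C) and YHR020W encode the asparaginyl and prolyl enzymes and are transcribed away from each other by their locus names. YHR020W had signals of 3793, 3439, 3917 and 3874 with gentamicin, against 4459, 4149, 4336 and 4433 in controls, and fell 1.16-fold (log2 difference -0.21 ± 0.06; limma adjusted p = 0.019). Its log2 difference was 0.03, with the sign turned, when array medians over all probe sets were aligned. *DED81* had 5910.0, 4961, 5486 and 5566 with gentamicin, against 4984, 4832, 5106 and 4889 in controls. Of its gentamicin values 3 lay above all controls, and gentamicin array 6 lay among them, with a log2 difference of 0.14 (limma adjusted p = 0.0922). *DED81* was called upward without gentamicin array 6 (adjusted p = 0.0247), with array weights (0.0218) and with medians of tested genes aligned (0.00777), but had a log2 difference of 0.07 after quantile normalization (0.357).

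*GUS1* and *DPS1* were the synthetases that rose. *GUS1*, the glutamyl enzyme, had signals of 4403, 3982, 4259 and 4153 with gentamicin, against 3245, 3252, 3723 and 3801 in controls, and rose 1.20-fold (log2 difference 0.26 ± 0.07; limma adjusted p = 0.0152). *DPS1*, the aspartyl enzyme, had 11274, 11269, 10449 and 10152 with gentamicin, against 8319, 8535, 10122 and 9258 in controls, and rose 1.19-fold (log2 difference 0.25 ± 0.07; adjusted p = 0.019). The groups did not overlap in either gene, though the lowest gentamicin and the highest control value of *DPS1* nearly met. Both calls were lost after quantile normalization (adjusted p = 0.0532 for *GUS1* and 0.253 for *DPS1*) and without both control array 1 and gentamicin array 5 (0.0583 and 0.0718). That of *DPS1* was also lost without control array 2 (0.0552). In the yeast cytosol, the proteins of *GUS1* and *MES1* form a complex with the tRNA-binding cofactor Arc1. Of its 3 genes, *MES1* fell, *GUS1* rose and *ARC1* was not called, with 4320.0, 2872, 4039 and 4006 with gentamicin, against 3589, 3463, 3254 and 3790.4 in controls (limma adjusted p = 0.545). Gentamicin array 6 of *ARC1* lay apart from the other 3, which were all above the controls, and without it the log2 difference was 0.23 (adjusted p = 0.0298).

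**Figure D3:**
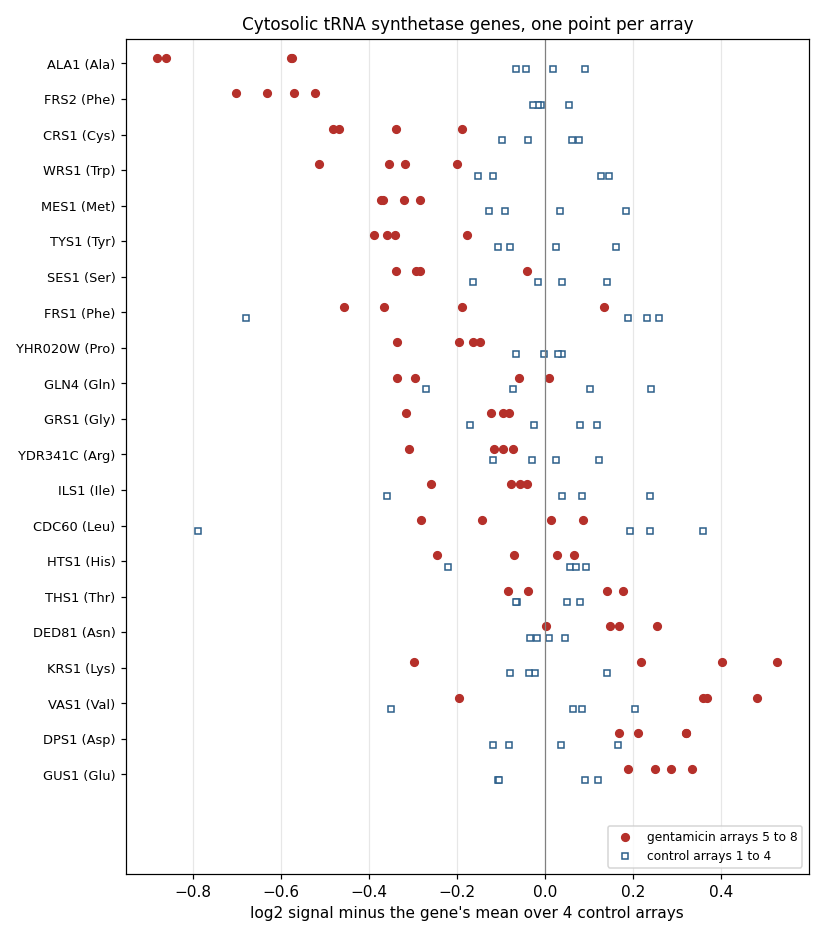
Each row is a cytosolic synthetase gene (amino acid in brackets), and each point is the log2 signal on 1 array minus the gene's mean over the 4 control arrays (red circles: gentamicin, open blue squares: control). The gentamicin points of *ALA1* and *FRS2* lie apart from their controls, and those of most other genes overlap or border on them.

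The 5 genes that serve both compartments from a single locus did not all pass the test in 1 direction. *ALA1* and *CRS1* fell, as given above. *GRS1*, the glycyl enzyme, had 1909, 2225, 2247 and 2185 with gentamicin, against 2511, 2579, 2111 and 2337 in controls (log2 difference -0.15, 95% interval -0.35 to 0.04; limma adjusted p = 0.167). *HTS1*, the histidyl enzyme, had 3143, 3795, 3895 and 3544 with gentamicin, against 3194, 3873, 3912 and 3974 in controls (limma adjusted p = 0.653). The groups overlapped in both, and the low value of each *HTS1* group was on gentamicin array 5 and control array 1. *VAS1*, the valyl enzyme, had 1264, 791, 1168 and 1161 with gentamicin, against 947, 960.0, 710.4 and 1043 in controls (log2 difference 0.25, 95% interval -0.12 to 0.63; adjusted p = 0.241). Without gentamicin array 6, its lowest, *VAS1* passed the threshold upward (log2 difference 0.40, adjusted p = 0.0358).

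The remaining cytosolic genes, *GLN4* (glutaminyl), *ILS1* (isoleucyl), *SES1* (seryl), *THS1* (threonyl) and YDR341C (arginyl), were not called. *SES1* was nearest to the threshold, with 2616, 3118, 2632 and 2536 with gentamicin, against 3531, 3172, 3291 and 2863 in controls (log2 difference -0.24 ± 0.09; limma adjusted p = 0.0518). It was called downward under 5 of the alternatives, among them quantile normalization (adjusted p = 0.0273), whereas its log2 difference was -0.0012 (0.992) with medians over all probe sets aligned and -0.09 (0.445) with those over tested genes aligned. The others ran from -0.17 for *GLN4* to 0.05 for *THS1* in log2 difference, and their groups overlapped. For all 12 cytosolic genes that were not called, the 95% interval of the difference lay within a 2-fold change in either direction, and for 9 of them within 1.5-fold.

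Of the 14 mitochondrial enzymes, 9 passed the signal filter, 1 fell and none rose (limma, with no gene that rose at an unadjusted p under 0.05 either). This is 11.1% of 9 genes, against 46.8% called over all tested genes. The median log2 difference of the 9 was -0.19, or -0.07 relative to all tested genes, and the relative value turned to 0.03 after quantile normalization and to 0.04 over all 14 genes without a filter. On single arrays, their median relative to control means lay between -0.22 and -0.07 on the gentamicin arrays and between -0.13 and 0.09 on the control arrays, the lowest control being array 1. *AIM10*, which resembles prolyl-tRNA synthetases, had signals of 247, 232, 248 and 208 with gentamicin, against 297, 309, 335 and 355 in controls. All 4 gentamicin values lay below the controls, and the gene fell 1.39-fold (log2 difference -0.47 ± 0.10; limma adjusted p = 0.00372). The call was lost after quantile normalization (adjusted p = 0.102) and with medians over all probe sets aligned (0.0954), and was kept with medians over tested genes aligned (0.0228).

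The other tested mitochondrial enzymes had overlapping groups. *MSM1*, the methionyl enzyme, had 489, 339.9, 374 and 486 with gentamicin, against 553, 527, 431 and 529.8 in controls (log2 difference -0.29, 95% interval -0.60 to 0.03; limma adjusted p = 0.125). *MSY1*, the tyrosyl enzyme, had 198, 212, 229 and 201 with gentamicin, against 223, 215, 282 and 259 in controls (adjusted p = 0.143). *MSD1*, the aspartyl enzyme, had 616, 693, 891 and 794 with gentamicin, against 775, 875, 872 and 865 in controls (adjusted p = 0.206). In each of these 3, at least 1 gentamicin value lay among the controls. *MSR1* (arginyl) was not called either (log2 difference -0.21, adjusted p = 0.119), but passed the threshold without gentamicin array 7 (-0.29, adjusted p = 0.0315). *MSK1*, the lysyl enzyme, which also takes part in the import of a cytosolic lysine tRNA into mitochondria, had 555, 977, 1010.3 and 837 with gentamicin, against 521, 803, 799.6 and 894 in controls. Its lowest values in both groups were on gentamicin array 5 and control array 1, and its interval was wide (log2 difference 0.15, 95% interval -0.34 to 0.65). *ISM1* (isoleucyl), *MST1* (threonyl) and *NAM2*, the leucyl enzyme that also acts in splicing of mitochondrial introns, had log2 differences of -0.08, 0.13 and 0.05. For all 8 mitochondrial genes that were tested and not called, the 95% interval lay within a 2-fold change, and for 6 within 1.5-fold.

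The 5 mitochondrial enzymes left out by the signal filter were *DIA4* (seryl), *MSE1* (glutamyl), *MSF1* (phenylalanyl), *MSW1* (tryptophanyl) and *SLM5* (asparaginyl), with single signals from 91.0 to 241. None was called when all 5656 genes were tested (limma adjusted p from 0.102 to 0.977). *MSW1* had 93.4, 134, 188 and 169 with gentamicin, against 156, 195, 213 and 241 in controls, with a log2 difference of -0.50 ± 0.22. Its lowest values were again on gentamicin array 5 and control array 1, and the groups overlapped. *MSE1* had 113, 131, 106 and 91.0 with gentamicin, against 121, 133, 114 and 108 in controls. *MSF1* had 177, 192, 163 and 173 with gentamicin, against 218, 129.7, 183 and 158 in controls. *DIA4* and *SLM5* had log2 differences of 0.0045 and -0.02.

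**Figure D4:**
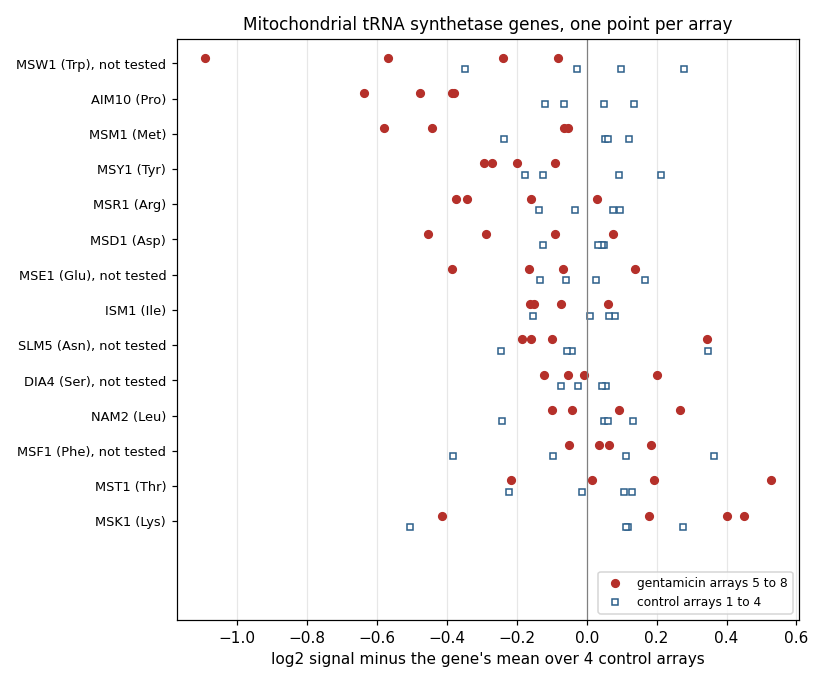
Each row is a mitochondrial synthetase gene (amino acid in brackets), and each point is the log2 signal on 1 array minus the gene's mean over the 4 control arrays (red circles: gentamicin, open blue squares: control). The groups of *AIM10* are separate, and those of the other 13 genes overlap.

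Counts of calls and medians were set side by side for the compartments, as descriptions. The cytosolic set had 9 of 21 genes called (42.9%) and the mitochondrial set 1 of 9 (11.1%), against 46.8% of all tested genes, with medians of -0.15 and -0.19. The cytosolic median was 0.04 log2 units above the mitochondrial one. A related measure is the cytosolic minus mitochondrial gap, on each array, between the medians relative to control means. That gap was -0.015 ± 0.029 on gentamicin and 0.011 ± 0.10 on control arrays (SD, n = 4 each), with overlapping values. The 0.04 between medians turned in sign under 7 of 19 alternatives. Among them were quantile normalization, which gave -0.16, and the test of all genes without a filter, which gave -0.05. Mitochondrial standard errors had a median of 0.11 log2 units and cytosolic ones of 0.09. The compartments also differed in signal level. With the lowest 40% of genes by mean signal left out, 20 of the 21 cytosolic and 4 of the 9 mitochondrial genes remained. The part of signal level, and of the wider spread on gentamicin arrays, in the compartment comparison was not tested.

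For 14 amino acids there is a cytosolic and a mitochondrial gene, which gave 15 pairs because phenylalanine has 2 cytosolic subunits. In 9 pairs both genes were tested. In these, the cytosolic gene had the lower log2 difference in 5 and the higher in 4. The gap between the 2 genes was over 2 SE in 2 of the 9 pairs. For aspartate, *DPS1* stood 0.44 ± 0.16 (SE) above *MSD1*, and for proline, YHR020W stood 0.26 ± 0.09 above *AIM10*. Both gaps depended on scaling. After quantile normalization *DPS1* was at 0.12 and *MSD1* at -0.03. YHR020W was then at -0.28 and *AIM10* at -0.24, so that the order of the proline pair turned. Proline was the amino acid for which both genes were called, both downward. For methionine and tyrosine the cytosolic gene was called and the mitochondrial was not, but the gaps were -0.05 ± 0.13 and -0.10 ± 0.10, within the spread. For lysine, isoleucine, leucine, arginine and threonine the gaps were within 1 SE. Among pairs with an untested mitochondrial gene, *FRS2* stood at -0.66 ± 0.18 and *FRS1* at -0.28 ± 0.39 relative to *MSF1*, and *GUS1* at 0.38 ± 0.17 relative to *MSE1*. *SES1* stood at -0.24 ± 0.13 relative to *DIA4*, and *DED81* at 0.17 ± 0.21 relative to *SLM5*. *WRS1* and *MSW1* both had negative differences, with a gap of 0.15 ± 0.32.

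**Figure D5:**
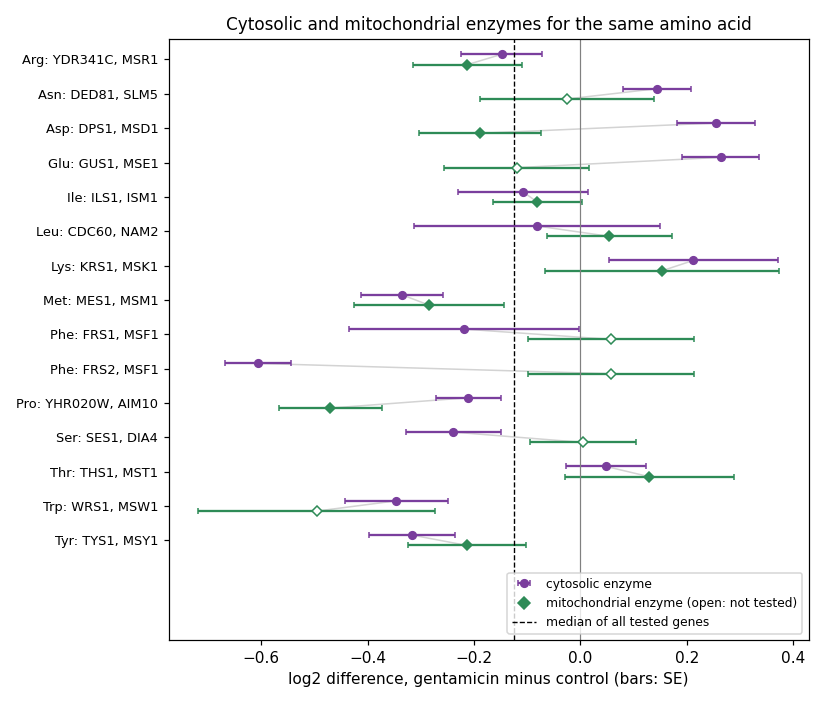
Log2 difference, gentamicin minus control, with its SE for the cytosolic (purple circles) and mitochondrial gene (green diamonds, open where not tested) of each of 14 amino acids. The bars of most pairs overlap, while *DPS1* lies 0.44 above *MSD1* and *FRS2* lies 0.66 below *MSF1*.

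Counts by class were as follows, against 31.3% of all tested genes that fell and 15.5% that rose. Of the 15 tested class I enzymes 4 fell and 1 rose, with a median log2 difference of -0.17, and of the 15 tested class II enzymes 4 fell and 1 rose, with a median of -0.15.

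Among 14 genes that act beside the synthetases, 10 were tested, of which 5 fell (50%) and none rose. Of all tested genes 31.3% fell and 15.5% rose, or 46.8% in either direction. Of the tested genes that were not called, only *GCN4* had an unadjusted limma p under 0.05. *CCA1*, which adds the CCA end that synthetases charge, had 645, 727, 574 and 625 with gentamicin, against 975, 883, 1017 and 843 in controls, and fell 1.45-fold (limma adjusted p = 0.00175). *CEX1*, which receives tRNA leaving the nucleus, had 536, 456, 530.1 and 475 with gentamicin, against 656, 643, 699 and 670.0 in controls, and fell 1.34-fold (adjusted p = 0.00231). The groups were separate in both, but the call of *CEX1* was lost after quantile normalization (log2 difference -0.22, adjusted p = 0.0561) and with medians over all probe sets aligned (-0.18, 0.134). *DTD1*, a deacylase that removes D-amino acids from tRNA, fell 1.65-fold with overlapping groups (adjusted p = 0.0226), and its dimmer probe set gave a log2 difference of -0.59. That call was lost with medians over all probe sets aligned (adjusted p = 0.0834) and without control array 2 (0.0623), 3 (0.057) or 4 (0.0509). *GRS2*, the second glycyl-tRNA synthetase gene, fell 1.17-fold (adjusted p = 0.0443), a call lost under 10 alternatives, 6 of which left out a single array. *GTF1* and *HER2*, subunits of the mitochondrial amidotransferase that makes glutaminyl-tRNA from glutamyl-tRNA, were not called (adjusted p = 0.651 and 0.548). The remaining subunit gene *PET112*, the formyltransferase *FMT1* and the exportin *LOS1* were not tested, and each had signals at or below the brightest control for absent transcripts on 3 or 4 arrays. In the test of all genes without a filter, *LOS1* was lower (adjusted p = 0.0278) and *FMT1* higher (0.0496).

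Genes that sense uncharged tRNA, and *GCN4*, which acts after them, were measured in the same fit. The signals are of mRNA and do not show the translation of Gcn4. *GCN4* had signals of 20184, 18686, 19471 and 18670.3 with gentamicin, against 17629, 16599.6, 18519 and 17704 in controls. All gentamicin values lay above all control values, with a log2 difference of 0.13 ± 0.05 that missed the threshold (limma adjusted p = 0.0711) and passed it with medians over tested genes aligned (0.00316). After quantile normalization its sign turned (log2 difference -0.07, adjusted p = 0.264). *GCN1*, which with *GCN20* activates the kinase, fell 1.20-fold (adjusted p = 0.0443), a call lost under 12 alternatives, 7 of which left out a single array. Its 8 other probe sets gave log2 differences from -0.55 to 0.09. Both ends came from probe sets with mean signals below the brightest control for absent transcripts (89.5). Those with mean signals above it in both groups ran from -0.33 to -0.02. *GCN20* was not called (log2 difference 0.02, adjusted p = 0.81). *GCN2*, the kinase itself, was below the signal filter, with 147, 233, 188 and 183 with gentamicin, against 228, 237, 228 and 190.2 in controls.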

How the data were processed

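Total RNA of 8 samples was copied into biotin-labelled cRNA from an oligo-dT primer and hybridised in 1 colour, per the labels' protocols. The authors deposited linear intensities, 1 for each probe set on each array, from MAS5 according to the submitters' processing notes. Its version and settings are not given in the sources used here. The deposited intensities were all above 0, with a mean near 1001 on each array once the lowest and highest 2% were removed, so each array was scaled to a common mean. Detection calls were not used here.

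Of 9335 probe sets, 60 were array controls, 6504 had 1 gene in the platform annotation, 328 had several and 2443 had none. Gene identifiers of all 6504 matched the R64 table, which supplied current symbols, and the brightest probe set stood for a gene. log2 intensities of the deposited table were fitted with limma 3.58.1 under R 4.3.3, with lmFit on the group alone and eBayes with its trend option, after removal of the 20% of genes with the lowest mean. The number of arrays limits the precision. On simulated data over 4524 genes for this comparison, the fit recovered, with the right sign, 78% of 1.5-fold and 90% of 2-fold changes, and 11 of its 179 calls were false. The simulation changed only a small part of the genes, with noise drawn independently for each gene and array. In the data 46.8% of tested genes were called and arrays shared deviations, so these rates may not hold for them. Most called synthetases changed by less than 1.5-fold.

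Alternatives were other scalings, an offset of 8.17 before log2, other filters, fits without the trend or with array weights, the median over probe sets, a stricter threshold, and single arrays or far values left out.

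The members, lists and alternatives were chosen with earlier results of these data known. Named with single values were called members, their partners for the same amino acid and the genes serving both compartments. *CDC60*, *KRS1*, *SES1*, *MSK1*, *DED81* and the partner genes given by array were chosen after their values were seen. Promoter and protein sequences were not analysed here, and genome coordinates were used only to find neighbouring synthetase genes.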

Additional observations from a re-analysis of the deposited data

Results flagged for a closer look

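In 8 of 98 groups of 4 values (35 synthetase genes and 14 genes that act beside them, each in both treatments), 1 array lay far from the other 3 by Dixon's criterion, which chance meets in about 1 of 20 groups. Of the 8 values, 4 were low values on control array 1. These were *CDC60* at 430.0, against 848 to 951 on the other controls, *FRS1* at 4783, against 8725 to 9169, *HTS1* at 3194, against 3873 to 3974, and *MSD1* at 775, against 865 to 875. On gentamicin array 6, *ILS1* was at 1321, against 1499 to 1536 on the other gentamicin arrays, and *SLM5* at 198, against 137 to 146. *PET112* was at 63.8 on control array 3, against 117 to 129 on the other controls, and *GCN2* at 190.2 on control array 4, against 228 to 237. Of the 35 synthetase genes, 5 (14.3%) had their lowest value on gentamicin array 5 and on control array 1 at once, as had 14.9% of all tested genes.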

How the results depend on the processing

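The direction of the small differences depended on scaling. After quantile normalization, 0 cytosolic genes were higher, 0 mitochondrial genes were lower, the mitochondrial median was 0.011, the cytosolic minus mitochondrial median was -0.16, and 894 of all tested genes were lower. With array medians over all probe sets aligned, which moved the median of tested genes to 0.11, 6 cytosolic genes were higher and 2 lower, 0 mitochondrial genes were lower, the medians were 0.084 and 0.048, and 1369 of all tested genes were higher and 546 lower. YHR020W turned to 0.026 and *GRS2* to 0.016 there. With medians over tested genes aligned, an alternative chosen after seeing the data, 2 cytosolic genes were lower, the medians were -0.0078 and -0.044, and 1079 of all tested genes were higher and 799 lower. Without a filter the mitochondrial median was -0.10 and the difference of medians -0.053. With the lowest 40% left out, 0 mitochondrial genes were lower and the difference was -0.016. Array weights gave 4 higher cytosolic genes and a difference of -0.017. At an adjusted p under 0.01, 0 cytosolic genes were higher and 4 lower, and 915 of all tested genes were lower. Without both control array 1 and gentamicin array 5, also chosen after seeing the data, 1 cytosolic gene was higher and 9 were lower.

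With each array left out in turn, 1 to 4 cytosolic genes were higher and 7 to 9 lower, 0 mitochondrial genes were higher and 1 to 2 lower. The cytosolic median ran from -0.19 to -0.14, the mitochondrial from -0.23 to -0.13 and their difference from -0.045 to 0.059. Of all tested genes 601 to 692 were higher and 1192 to 1361 lower. The lowest count of higher cytosolic genes was without control array 2 and the highest without gentamicin array 6, and 2 mitochondrial genes were lower without gentamicin array 7. The causes were not tested. Over the synthetase genes, 522 single results kept their side of the threshold, 24 gained a call and 17 lost it with the same sign. In 1 result, that of YHR020W with array medians over all probe sets aligned, the call was lost and the sign turned. Counting genes that were not called, the sign of the difference turned in 29 of these 564 results, over 16 of 30 genes, and 21 of the 29 were under the 3 scalings. No paired analysis was possible because the groups share no replicate numbers.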
